A study of Caenorhabditis elegans with 2 samples.

Results

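Aminoacyl-tRNA synthetases join each amino acid to its tRNA, the step that sets the genetic code during translation. Translation runs in the cytosol and in mitochondria, so most animals carry separate synthetase genes for the 2 compartments, and a few genes serve both through alternative start codons. The genes described here are the protein-coding genes of *Caenorhabditis elegans* in the Ensembl WBcel235 annotation whose symbol is 1 letter followed by ars- and a number. The rule found 32 genes among 19956 named protein-coding genes on the 6 nuclear chromosomes. Of these, 17 encode cytosolic synthetases, 12 encode mitochondrial ones and 3 (gars-1, hars-1 and kars-1, for glycine, histidine and lysine) serve both compartments. The compartment was stated by a RefSeq product name for 14 genes and taken from general knowledge for the other 18. RefSeq names a product of tars-1 (threonine) cytoplasmic, so it was counted as cytosolic, although the gene is also known to serve mitochondria.

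The chromatin, recovered with an anti-GFP antibody, came from whole L4 larvae of strain RW12267, aged 47 hours and synchronised by starving hatched L1 larvae after bleaching. In this strain, allele st12267 inserts TY1, EGFP and 3xFLAG tags into the native vab-7 gene on chromosome III, which encodes a homeodomain transcription factor of the Even-skipped class. There was 1 group of 2 biological replicates, the strain is 1 line, and the named control was not analysed here, so whether any peak depends on the tagged protein was not tested. VAB-7 is known to be expressed in a small part of the animal, and chromatin of the whole animal does not tell in which cells a site was occupied. The authors deposited 1815 peaks for the whole series (called the series list), a conservative list of 1732 peaks, and 1014 and 1119 peaks for replicates 1 and 2. A gene is called bound when the summit of a series peak lies within 1000 bp of its annotated 5′ end, and the word refers to position only. The signal of a peak is the authors' value from their peak caller, with no stated normalization, and it is used only to rank peaks within 1 list.

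Of the 32 synthetase genes, 2 were bound: ears-2, for the mitochondrial glutamyl-tRNA synthetase, and kars-1, for the lysyl-tRNA synthetase of both compartments. That is 6.25% (exact 95% interval 0.766% to 20.8%), beside 5.51% of all named protein-coding genes (1099 of 19956). The share lay near that of genes in general. None of the 17 cytosolic genes was bound (0%, exact interval up to 19.5%), against 1 of the 12 mitochondrial genes (8.33%, 0.211% to 38.5%) and 1 of the 3 genes for both compartments (33.3%, 0.840% to 90.6%). These intervals overlap widely and all hold the share of all genes, so a difference between cytosolic and mitochondrial forms was not detectable with lists of this size. The plot of shares by gene group shows the intervals side by side.

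**Figure D1:**
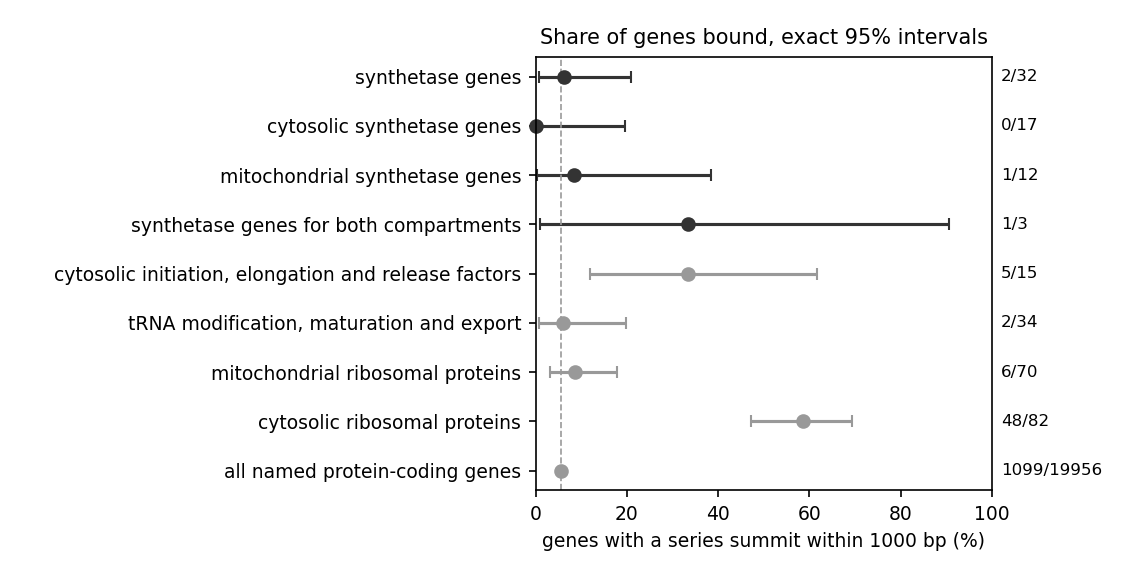
Percentage of genes with a series summit within 1000 bp of the 5′ end (x axis) for synthetase genes by compartment and for other translation genes (y axis), with exact 95% intervals and the counts at the right. The dashed line marks 5.51%, the share of all named protein-coding genes, and it runs through the intervals of all 4 groups of synthetase genes.

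The DNA under both bound sites is printed first, with that of mars-1, the gene of the cytosolic methionyl-tRNA synthetase, whose summit was the strongest intergenic one among those below the threshold. Each sequence is from the RefSeq WBcel235 assembly, whose coordinates apply to ce11, and reads 5′ to 3′ on the minus strand, the strand of all 3 genes. Capitals mark the word CGCG, picked after the sequences had been seen, and the homeodomain words TAATTA and TAATGA on either strand (TAATGA reads TCATTA on the other strand). The ears-2 sequence is the whole gap of 91 bp between the gene and its divergent neighbour, at chrIV:390469-390559. The other sequences are the 101 bp centred on the summit, at chrII:7072701-7072801 for kars-1 and chrIV:11635719-11635819 for mars-1.
ears-2: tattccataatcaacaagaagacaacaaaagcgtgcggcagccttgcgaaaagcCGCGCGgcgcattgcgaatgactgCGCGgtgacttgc
kars-1: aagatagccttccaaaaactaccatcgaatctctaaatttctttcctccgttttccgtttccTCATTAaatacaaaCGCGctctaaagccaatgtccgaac
mars-1: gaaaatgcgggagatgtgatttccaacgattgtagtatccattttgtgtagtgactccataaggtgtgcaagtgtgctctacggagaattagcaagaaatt
Counting overlaps, the gap at ears-2 held CGCG 3 times, and it held no homeodomain word. The kars-1 window held CGCG once, and TAATGA once on the plus strand, and the mars-1 window held neither.

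The ears-2 gene (WBGene00001338, chromosome IV, 388686 to 390468, minus strand) had the strongest peak of the group. Its protein attaches glutamate inside mitochondria and is named by RefSeq a non-discriminating enzyme, a kind that also charges the mitochondrial glutamine tRNA with glutamate. The peak spanned 390398 to 390577, with a signal of 333 and rank 43 of 1815, and its summit at position 390498 lay 30 bp upstream of the 5′ end in intergenic sequence. The peak was also in the conservative list. In replicate 1 the overlapping peak had a signal of 181 (rank 43 of 1014), and in replicate 2 it had 150 (rank 48 of 1119), with summits 21 and 22 bp from that of the series list. Both replicates thus placed this peak near the top of their own list.

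The gap printed for ears-2 is shared with uncp-18, which is transcribed the other way. The same summit lay 62 bp upstream of the 5′ end of uncp-18, so the position does not assign the peak to either gene. The 101 bp at the summit had a GC content of 58.4%, against 43.6% and 38.6% in windows centred 300 bp to either side. Of all series summits, 86.2% had a lower GC content than that of ears-2, and their median was 50.5%. No annotated tRNA, snoRNA or snRNA gene lay within 200 bp of this summit.

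The kars-1 gene (WBGene00002238, chromosome II, 7070183 to 7072415, minus strand) had a weaker peak, with an overlapping peak above the threshold in 1 replicate only. Its peak spanned 7072599 to 7072902, with a signal of 87.8 and rank 1241 of 1815, below the list's median signal of 105. The summit lay 336 bp upstream of the 5′ end in intergenic sequence, with no other protein-coding 5′ end and no small RNA gene of the kinds named above near it. In replicate 2 the overlapping peak had a signal of 56.3 and rank 706 of 1119. The list of replicate 1 had no peak there. In the ranked list of replicate 1, which also holds peaks below the threshold, the overlapping peak had a signal of 35.8 and a score of 38, with its summit 144 bp away. The score is the authors' rescaling of the irreproducible discovery rate, with 1000 at the top and 830 the lowest in the series list and in that of replicate 1. The conservative list did not hold the kars-1 peak. GC content at the kars-1 summit was 39.6%, against 27.7% in the window on either side, and 9.97% of series summits had a lower value. Both bound summits were thus richer in GC than their flanks, but ears-2 stood high and kars-1 low among all series summits.

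Only ears-2 was therefore bound in all 4 thresholded lists. The conservative list had 1 of the 32 genes bound, where 5.14% of all named genes were bound. The list of replicate 1 had 1 of the 32, with 3.11% of all named genes, and the list of replicate 2 had 2, with 3.44%. No cytosolic gene was bound in any of the 4 lists.

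The gene closest to the group of bound genes without belonging to it was fars-1, for the alpha subunit of the cytosolic phenylalanyl-tRNA synthetase. It was the only 1 of the 32 genes with a series summit inside the gene, where 3.11% of all named genes had one. That summit lay 1812 bp downstream of the 5′ end of fars-1 (WBGene00001497, chromosome I, 6211981 to 6214685, minus strand), in an intron. Its peak, 6212802 to 6212900, had a signal of 206 and rank 242 of 1815, and was called in replicate 1 with a signal of 112 and in replicate 2 with 87.8. The summit fell inside T08B2.t1, which RefSeq annotates as a tRNA pseudogene (6212821 to 6212892), and 49 bp from the 5′ end of the snoRNA gene T08B2.13. It also lay 988 bp upstream of the 5′ end of mrpl-23, which encodes a mitochondrial ribosomal protein. With the distance widened to 2000 bp, 3 of the 32 genes were bound, fars-1 among them, where 8.15% of all named genes were.

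The remaining 29 genes had no series summit within 2000 bp. Over all 32 genes the nearest series summit lay at a median distance of 24.1 kb, with a range of 0.0300 to 198 kb, where the median of all named genes was 25.4 kb. For 22 of the 32 genes it was more than 10 kb away. The most distant was that of vars-1, the mitochondrial valyl-tRNA synthetase gene, at 198 kb, followed by mars-1 at 111 kb and aars-2, for the cytosolic alanyl-tRNA synthetase, at 109 kb. Among cytosolic genes the median distance was 17.4 kb and among mitochondrial genes 34.9 kb, with ranges of 1.81 to 111 kb and 0.0300 to 198 kb that overlap over most of their length. None of the 32 genes lies on the X chromosome, which carries 386 of the 1815 series summits and 13.7% of named genes. Chromosome I has 9 of the 32 genes, chromosome IV 8, chromosome III 6, chromosome II 5 and chromosome V 4.

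The pooled ranked list, which holds 88007 peaks down to low scores, gives a value for most of the group. Of the 32 genes, 29 had a summit of that list within 1000 bp (90.6%, exact 95% interval 75.0% to 98.0%), where 68.0% of all named genes had one. The interval lay above the share of all named genes, and the reason was not tested. Such summits are common among genes in general and do not mark a gene as bound. The genes without one were dars-2, for the mitochondrial aspartyl-tRNA synthetase, gars-1, and pars-1, for the cytosolic prolyl-tRNA synthetase. The strongest such summit had a median signal of 37.8 over the 29 synthetase genes and of 35.7 over the 13566 named genes with one. Both medians were set by genes that had a summit, and the group's middle value differed little from that of other genes.

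**Figure D2:**
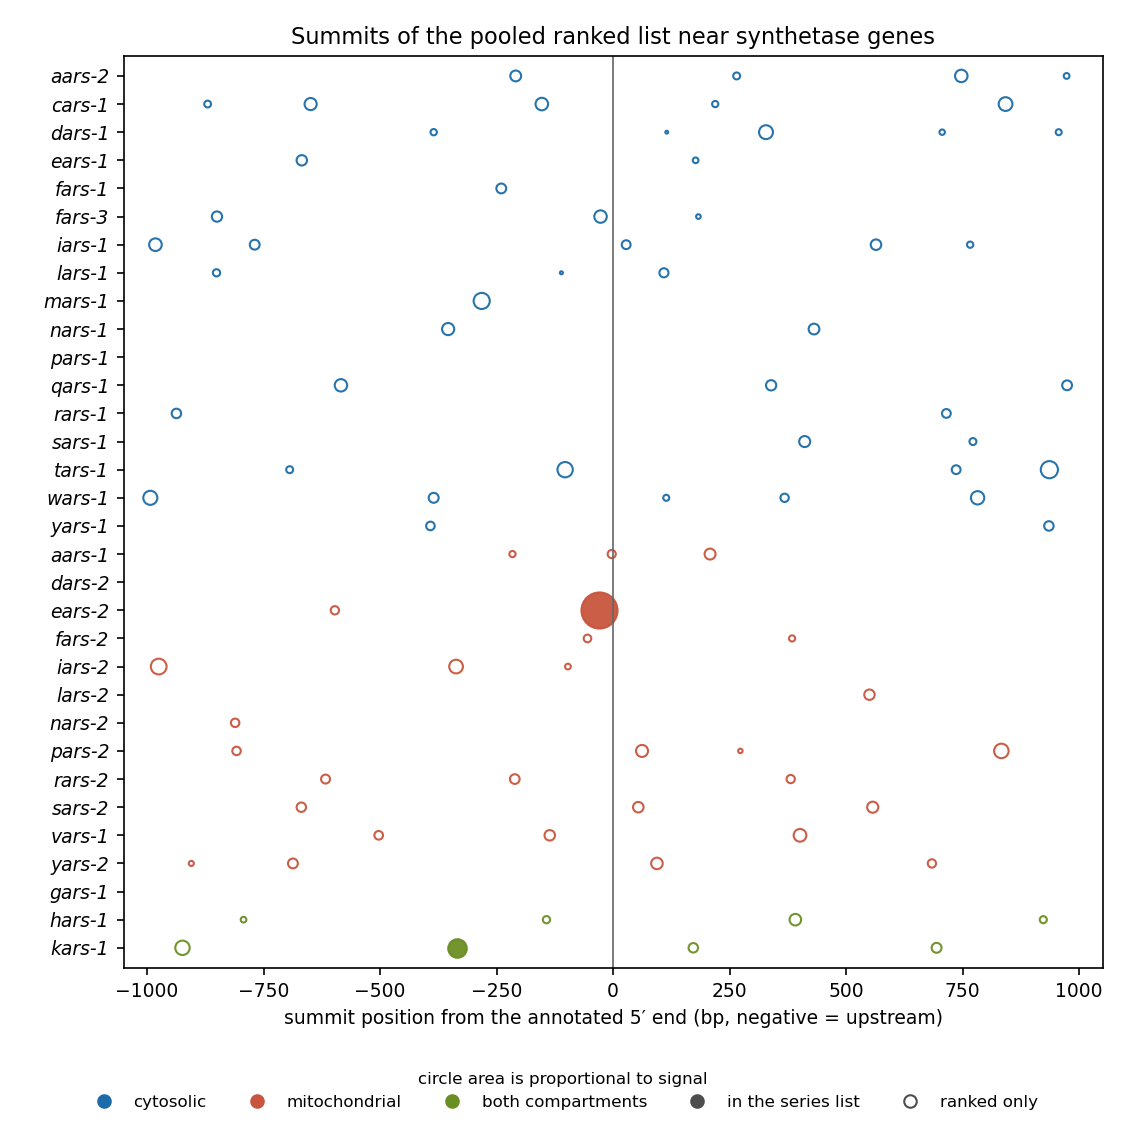
Summits of the pooled ranked list (circles, area proportional to signal) by distance from the annotated 5′ end in bp (x axis) for each of the 32 synthetase genes (y axis), coloured by compartment. The 2 filled circles, at 30 bp upstream of ears-2 and 336 bp upstream of kars-1, are the summits that are also in the series list.

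After ears-2 and kars-1, the next signals belonged to tars-1 (75.3), mars-1 (66.6), iars-2, for the mitochondrial isoleucyl-tRNA synthetase (63.4), and pars-2, for the mitochondrial prolyl-tRNA synthetase (53.7). The signal of ears-2 thus stood far above the others, while that of kars-1 was close to the highest values below the threshold. By score, kars-1 was not close to them, with 1000 in the pooled ranked list and in that of replicate 2. In the ranked list of replicate 1, the peak overlapping that of kars-1 had a score of only 38. The summit of tars-1 lay 936 bp downstream of its 5′ end in an intron, which overlaps an intron of kel-1 on the other strand. It had a score of 501 in the pooled ranked list and of 737 in that of replicate 1, where its signal was 57.1, but the strongest summit of tars-1 in replicate 2 lay elsewhere, upstream of the 5′ end, with a signal of 31.5 and a score of 31. The summit of mars-1, printed above, lay 282 bp upstream and had a score of 292. In replicate 1 its signal was 33.0 (score 295) and in replicate 2 it was 29.9 (score 37), with summits 15 and 27 bp from the pooled one. The lowest signals belonged to fars-2 (14.9) and nars-2 (18.3), for the mitochondrial phenylalanyl- and asparaginyl-tRNA synthetases. Over the 27 genes that had such a summit and were not bound, the summit of the strongest signal had a score of at most 501, with a median of 92.0. A weaker summit of iars-2, with a signal of 48.0, had a score of 555. The strongest summit of these 27 genes lay upstream of the 5′ end in 13 and downstream in 14.

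**Figure D3:**
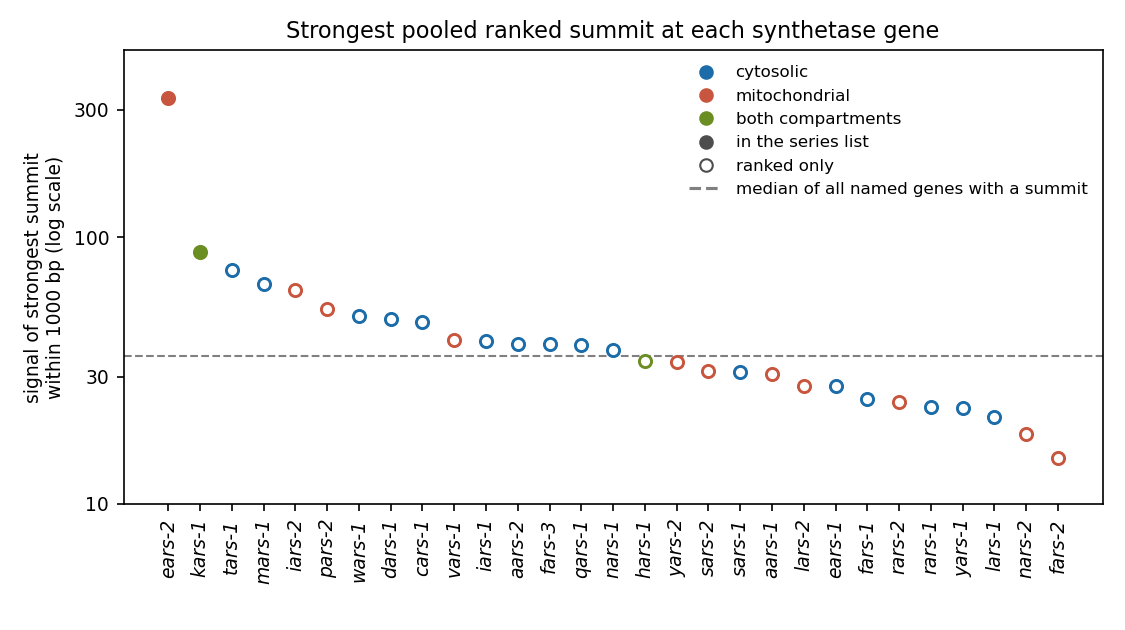
Signal of the strongest pooled ranked summit within 1000 bp (y axis, log scale) for the 29 synthetase genes that had one (x axis, in falling order), coloured by compartment and filled where the summit is in the series list. Values fall from 333 at ears-2 to 14.9 at fars-2, and the dashed line is the median of 35.7 over all named genes with a summit.

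Cytosolic and mitochondrial genes overlapped in these signals. The 16 cytosolic genes with a pooled ranked summit ranged from 21.2 to 75.3 with a median of 39.5, and the 11 mitochondrial ones from 14.9 to 333 with a median of 31.5. Apart from ears-2, no mitochondrial gene exceeded the highest cytosolic value. A gene for each compartment was present for 11 amino acids, and for 9 of these both had a value, with the stronger of fars-1 and fars-3 taken for phenylalanine. The cytosolic gene had the higher signal for 3 amino acids (alanine, asparagine and phenylalanine) and the mitochondrial gene for 6. For arginine and serine the signals nearly coincided, with 23.1 at rars-1 and 24.0 at rars-2, and 31.1 at sars-1 and 31.5 at sars-2. The widest contrast was that of glutamate, with 27.6 at ears-1, the cytosolic gene, and 333 at ears-2. In replicate 2, ears-1 had no ranked summit within 1000 bp. The summits behind the values of ears-1, iars-1, iars-2, nars-2 and rars-2 lay inside neighbouring genes. These were ZC434.3, pges-2, C25A1.16, tin-10 and C29H12.2, in the same order. The other values of the 9 pairs came from intergenic sequence or the gene itself. The pairs therefore compare positions near 5′ ends, not the synthetase genes alone.

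In the ranked lists of the replicates, 22 of the 32 genes had a summit within 1000 bp in both and 1, dars-2, in neither. In replicate 1, 27 of the 32 genes had one (84.4%), against 66.6% of all named genes. In replicate 2, 26 of the 32 had one (81.2%), against 59.9% of all named genes. In replicate 1 the strongest signals had a median of 23.3 over 27 synthetase genes, against 25.0 over all named genes with a summit. In replicate 2 the median was 19.1 over 26 synthetase genes, against 17.3. In both replicates ears-2 had the strongest signal of the group. The next strongest was tars-1 in replicate 1, with 57.1, and kars-1 in replicate 2, with 56.3.

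**Figure D4:**
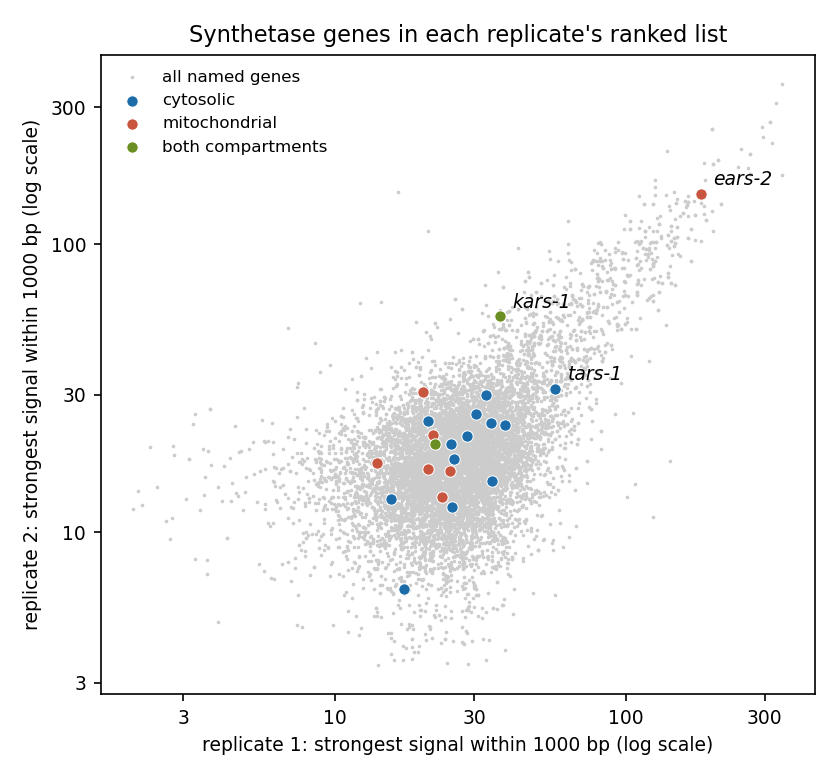
Signal of the strongest ranked summit within 1000 bp in replicate 1 (x axis) and replicate 2 (y axis), both on log scales, for the 22 synthetase genes with a value in both (coloured by compartment) and for all named genes with both (grey). Among synthetase genes, ears-2, at 181 in replicate 1 and 150 in replicate 2, stands apart at the upper right.

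In GC content and in the words counted, the sequence around the 5′ ends of synthetase genes was like that of genes in general. From 250 bp before to 50 bp after the 5′ end, GC content had a median of 33.0% over the 32 genes (23.3% to 51.3%), against 34.3% over all named genes. TAATTA or TAATGA, on either strand, was present in 8 of the 32 windows (25.0%, exact interval 11.5% to 43.4%), against 32.4% of the windows of all named genes. These 8 windows belonged to fars-3, gars-1, hars-1, lars-1, mars-1, nars-2, yars-1 and yars-2, none of which was bound. In the 101 bp windows at series summits, which are shorter, 4.30% held either word (78 of 1815), the kars-1 summit among them. CGCG was present in 12 windows (37.5%, 21.1% to 56.3%), against 27.9% of those of all named genes, and in 40.0% of the 101 bp windows at series summits. The ears-2 window was among the 12, and the kars-1 window was not, since its summit lies outside this stretch. A divergent protein-coding 5′ end lay within 1000 bp upstream of 11 of the 32 genes, against 3539 of the 19956 named genes. The share was thus higher among synthetase genes, and the reason was not tested. Of the 11 synthetase genes only ears-2 was bound (9.09%, exact interval 0.230% to 41.3%), where 11.7% of the 3539 named genes with such a partner were.

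Other genes that make, handle or use tRNA were counted in the same way. Among all named genes, 5.51% were bound in the series list and 5.14% in the conservative list. The shares were 3.11% in the list of replicate 1 and 3.44% in that of replicate 2. Of 15 genes for cytosolic initiation, elongation and release factors, 5 were bound (33.3%, exact interval 11.8% to 61.6%), all of them elongation factor genes. The strongest was eef-2, for the translocase, with a signal of 157, followed by eef-1G with 130. Next came eef-1A.1 with 116 and eef-1A.2 with 101, which encode the factor that brings charged tRNA to the ribosome, and then eef-1B.1 with 67.5. All 5 were bound in the conservative list, 4 in the list of replicate 1 and 3 in that of replicate 2. The list for tRNA modification, maturation and export was set to include glp-4, a synthetase gene described below, and also gcn-1 and gcn-2. Of its 34 genes, 2 were bound (5.88%, 0.720% to 19.7%), near the share of all named genes. These were mtcu-2, for an enzyme of mitochondrial tRNA modification, with a signal of 545 at 470 bp upstream, and elpc-4, for an Elongator subunit, with 70.3. Mitochondrial ribosomal protein genes were bound in 6 of 70 cases (8.57%, 3.21% to 17.7%), an interval that holds the share of all named genes. Cytosolic ones were bound in 48 of 82 (58.5%, 47.1% to 69.3%). In the conservative list these counts were 6 and 37, in the list of replicate 1 they were 2 and 30, and in that of replicate 2 they were 2 and 27. The tRNA modification, maturation and export genes had 2 bound in the conservative list and 1 in the list of each replicate. The exact interval of the synthetase genes, with its upper bound at 20.8%, does not reach that of the cytosolic ribosomal protein genes. The lists compared were chosen with earlier results of these data known, so this contrast is a description and not a test. Synthetase genes that the symbol rule leaves out were not bound either: glp-4, for a valyl-tRNA synthetase, Y105E8A.20, whose RefSeq product is the mitochondrial methionyl-tRNA synthetase, and prx-10, at which RefSeq also places the mitochondrial tryptophanyl-tRNA synthetase, had their nearest series summits 11.9, 27.2 and 25.2 kb away.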

How the data were processed

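The data are ChIP-seq peak lists on ce11, the build the labels name, from 2 biological replicates of 1 group. The authors deposited 8 lists, some per replicate and some over both replicates, of which a second pooled ranked list was not used. Neither the aligner nor the caller nor any read depth is stated (not given in the sources used here), so the depth is unknown and intervals cover only the sampling of genes. In the deposited lists the score is the authors' rescaling of the irreproducible discovery rate (IDR) and the signal is the value of the authors' caller. The deposited −log10 values were not used. A summit is the deposited offset added to the peak start.

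Genes came from Ensembl release 115 on WBcel235, whose chromosome lengths contain every peak, and product names and sequence from RefSeq on the same assembly. Gene symbols decided membership. Shares have exact (Clopper-Pearson) 95% intervals, computed with Python 3.11.15, numpy 2.4.6 and scipy 1.17.1. No test was run, since there is 1 group and the named control was not analysed here. Calls were checked on planted summits. All synthetase genes are accounted for, and full values are given for bound ones, for those with a series summit within 2000 bp, and for those whose state differs between lists. The genes and lists were chosen with earlier results of these data known. Alternatives were 500 bp and 2000 bp, the conservative list, the upper 50% by signal, each replicate alone, any transcript's 5′ end, upstream summits only, no small RNA sites, and compartments by the number in the symbol.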

Additional observations from a re-analysis of the deposited data

How the results depend on the processing

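The count of 2 bound synthetase genes stayed within 1.5 times under 6 of the 9 alternatives, with 2 genes (ears-2 and kars-1) in 5 of them and 3 within 2000 bp. The share of all named genes bound moved more under these 5, from 3.44% (replicate 1 left out) to 6.04% (any transcript's 5′ end). Within 500 bp that share was 3.74%, and within 2000 bp it was 8.15%. The count of synthetase genes was 1 in the conservative list and 1 in the upper 50% of the series list by signal, where 5.14% and 2.90% of all named genes were bound. With 1 replicate left out it ranged from 1 to 2. Cytosolic genes had 0 of 17 bound except within 2000 bp, where fars-1 made it 1. With compartments taken from the number in the symbol (1 or 3 cytosolic, 2 mitochondrial), 1 of 21 cytosolic genes was bound, which was kars-1, and 1 of 11 mitochondrial genes. Mitochondrial genes had 1 bound, ears-2, under every alternative run. With tars-1 placed among the genes for both compartments, a choice made after seeing the data, 0 of 16 cytosolic genes were bound. The peaks of 1 of the 2 bound genes overlapped both replicates' lists, at 1 bp or at 50% of the peak. No paired analysis was possible because there is 1 group. With 1 group and an unknown depth, weaker binding below the threshold cannot be told apart from background.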

Other observations

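The substrates of these enzymes can be set beside them, a comparison chosen after the data had been seen. Of 612 annotated nuclear tRNA genes, 446 lay with their 5′ end at most 200 bp from a series summit (72.9%, with an exact 95% interval of 69.2% to 76.4%), whereas 2 of the 32 synthetase genes had one within 1000 bp. Among the tRNA genes whose amino acid RefSeq states, 34 of 41 for glutamate had a summit (82.9%, 67.9% to 92.8%) and 39 of 46 for lysine (84.8%, 71.1% to 93.7%), the amino acids of ears-2 and kars-1. The tRNA genes read by ears-2 are on the mitochondrial genome, so the nuclear glutamate tRNA genes are substrates of ears-1, which was not bound. Families of amino acids whose synthetase genes were not bound reached similar shares, for example 34 of 39 for leucine (87.2%, 72.6% to 95.7%) and 23 of 27 for aspartate (85.2%, 66.3% to 95.8%). The lowest share among families of at least 10 genes was that of tryptophan, with 6 of 12 (exact interval 21.1% to 78.9%).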
